A study of Mus musculus with 6 samples.

Results

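The 55 genes described here act in mitosis, the division of the duplicated chromosomes between daughter nuclei, or in cytokinesis, the cutting of 1 cell into 2. They were chosen by name, and all 55 were found among the 32564 genes measured in the series. RNA sequencing was done on cells sorted by flow cytometry from the subependymal zone, the stem cell region beside the lateral ventricles of the brain, of gfap:GFP mice. These mice, labelled as strain C56BL/6J and 3 months old, carry a green fluorescent protein under the promoter of Gfap, a gene of both astrocytes and neural stem cells. The cells were collected 3 days after an intraventricular injection and are labelled as prospectively isolated quiescent neural stem cells. The vehicle group (3 libraries) received artificial cerebrospinal fluid, and the antagomir group (3 libraries) received an oligonucleotide that blocks the microRNA miR-204. The labels name no control oligonucleotide. Their treatment protocol mentions the antagomir for both groups, and groups were therefore read from the titles and the treatment group. Whether a replicate is 1 animal or a pool is not said, so p-values reflect the scatter among libraries that may be technical replicates.

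Entry into mitosis is driven by the kinase CDK1 with its A and B cyclins, with the transcription factor FOXM1 and the kinase PLK1 acting beside them. Condensin and topoisomerase compact and untangle the chromosomes, the kinetochore joins each chromosome to spindle microtubules, and the spindle assembly checkpoint holds the cell back until all are attached. CDC20 then lets the anaphase-promoting complex destroy securin and the B cyclins, and the central spindle, RhoA and anillin close the cleavage furrow. Most of these genes are transcribed in late S, G2 and M phase. Their promoters are known for the cell cycle genes homology region (CHR), which recruits the DREAM and MuvB complexes, and for CCAAT boxes, which bind NF-Y. Stem cells of the adult subependymal zone are mostly quiescent, and quiescent cells keep such genes low.

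The promoter sequence shows what these genes share that their choice by name did not use. Promoter windows from RefSeq (GRCm38.p6), 250 bases before to 50 bases after a start site, were held for 46 of the 55 genes, in 48 windows. The CHR, searched as TTTGAA or TTCGAA on both strands, was found in 39 of the 48 windows (81.2%), against 19.2% of the 32851 windows of all genes. CCAAT, searched on both strands, was found in 37 windows (77.1%) against 37.4%, and both motifs together in 35 (72.9%) against 7.52%. At least 2 CCAAT boxes stood in 23 windows (47.9%) against 11.7%. A match to one motif can share at most its end base with a match to the other. These shares are descriptions, and a match is not a measured binding site.

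**Figure D1:**
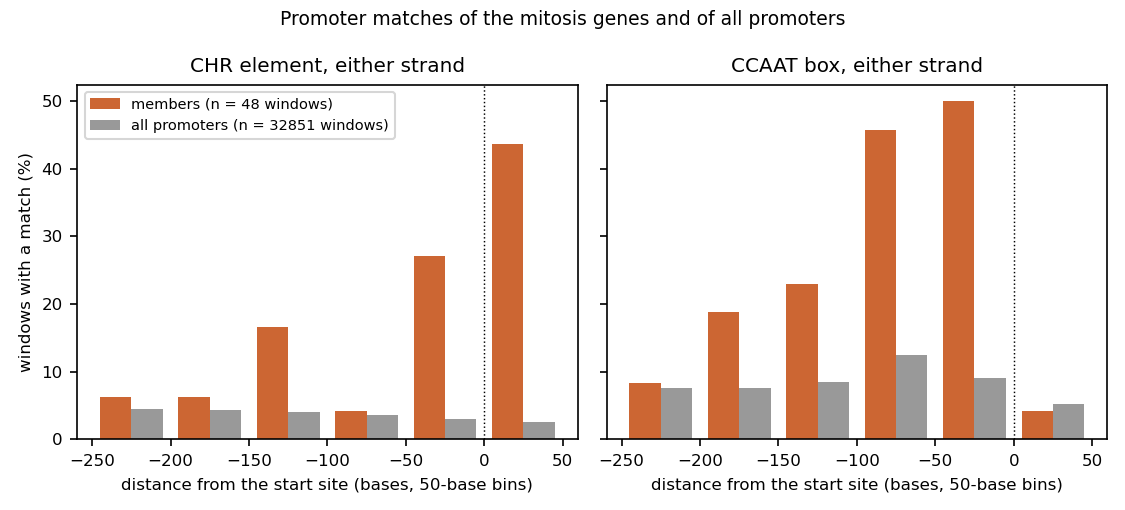
Share of promoter windows (percent, y axis) with a match starting in each 50-base bin by distance from the start site (bases, x axis), for the 48 windows of the mitosis and cytokinesis genes and the 32851 windows of all genes. The CHR was most frequent in the 50 bases after the start site (43.8% of member windows against 2.46%) and in the 50 bases before it (27.1% against 2.97%), and CCAAT in the 50 bases before it (50% against 9.03%).

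The sequences below show the motifs for regulators of mitotic entry and exit, for 2 chromosome proteins and for 2 spindle genes, and for Nuf2 as a contrast whose window held neither motif. Each is 110 bases before the start site and outside the gene's annotated transcripts, written 5′ to 3′ on the gene's strand, with matches on either strand in capitals. The stretches are Cdk1 (chr10:69352939-69353048, minus strand), Cdc20 (chr4:118437353-118437462, minus strand), Top2a (chr11:99024190-99024299, minus strand), Hmgb2 (chr8:57511733-57511842, plus strand), Kif11 (chr19:37376272-37376381, plus strand), Fam83d (chr2:158767983-158768092, plus strand) and Nuf2 (chr1:169531465-169531574, minus strand).
Cdk1: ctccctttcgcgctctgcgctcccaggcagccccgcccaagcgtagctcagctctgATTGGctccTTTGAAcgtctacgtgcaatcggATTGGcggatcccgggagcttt
Cdc20: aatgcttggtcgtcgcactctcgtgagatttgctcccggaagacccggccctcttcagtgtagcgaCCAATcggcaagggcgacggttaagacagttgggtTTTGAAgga
Top2a: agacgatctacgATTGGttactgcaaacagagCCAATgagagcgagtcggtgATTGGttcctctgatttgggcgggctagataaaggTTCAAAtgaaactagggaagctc
Hmgb2: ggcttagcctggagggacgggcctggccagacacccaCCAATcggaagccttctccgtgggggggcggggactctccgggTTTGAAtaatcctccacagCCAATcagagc
Kif11: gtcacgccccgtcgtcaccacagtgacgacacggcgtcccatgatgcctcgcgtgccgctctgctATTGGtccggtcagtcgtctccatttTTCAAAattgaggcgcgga
Fam83d: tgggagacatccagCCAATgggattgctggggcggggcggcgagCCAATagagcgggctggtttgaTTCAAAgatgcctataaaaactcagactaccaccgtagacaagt
Nuf2: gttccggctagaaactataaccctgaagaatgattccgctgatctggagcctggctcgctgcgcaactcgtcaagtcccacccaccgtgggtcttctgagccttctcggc
The promoters of Cdk1, Cdc20, Top2a, Hmgb2, Kif11 and Fam83d hold a CCAAT box and a CHR within this stretch, and the stretch of Nuf2 holds neither. The windows of Birc5, Kif18a, Mad2l1, Ncaph, Nusap1 and Pttg1 also held neither motif. The log2 fold change, antagomir over vehicle, was positive for Birc5, Kif18a, Ncaph and Nusap1 and negative for Nuf2, Mad2l1 and Pttg1.

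Direct matches to the blocked microRNA were few in the transcripts searched. The mature miR-204-5p, from chr19:22750610-22750631 on the plus strand, is shown with its seed (bases 2 to 8) in capitals, because the seed defines the sites searched.
miR-204-5p: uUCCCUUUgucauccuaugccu
For each gene only the protein-coding transcript with an annotated 3′ UTR and the highest mean TPM was searched, so sites in other transcripts were not counted. An 8mer or 7mer-m8 match to this seed stood in that 3′ UTR for 3 of 55 genes (5.45%), against 1947 of 14324 tested protein-coding genes (13.6%). The members' 3′ UTRs were shorter, with a median of 529 bases against 887. The 3 matches are given with the flanking bases and the match in capitals.
Mad2l1: ccacaagccacAAAGGGAAtagtattgtg
Nusap1: cgctcataggaAAAGGGAggctggaagac
Smc2: actggaccattAAAGGGAAcacatagcaa
Mad2l1 and Smc2 hold an 8mer and Nusap1 a 7mer-m8. Their log2 fold changes, antagomir over vehicle, were -0.09, 0.45 and 1.13, and the median of the 52 genes with no such site was 0.89.

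Depth was 14866453 to 19694409 estimated counts per library. Vehicle replicate 1 stood apart from the other vehicle libraries: the summed level of 15 microglia and macrophage markers was 2738 CPM (counts relative to library size, with TMM factors) there, against 404.0 and 252 CPM in vehicle replicates 2 and 3 and 200 to 431 CPM in the antagomir libraries. All 15 of those markers had their highest level in vehicle replicate 1. The quiescent stem cell and astrocyte markers were abundant in every library (15 genes summing to 13994 to 19214 CPM), but so were 10 oligodendrocyte markers (9701 to 22033 CPM). The 10 endothelial and pericyte markers summed to 91.2 to 147 CPM over the libraries, and 2 of them, Kcnj8 and Vtn, were at 0 in all 6.

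The mitosis and cytokinesis genes lay higher on average after the antagomir, but no single gene passed the edgeR test used here, and 1 vehicle library held levels like those of the treated cells. Together the 55 genes took 0.215% of the counts in vehicle replicate 1, 0.0997% in vehicle replicate 2 and 0.0938% in vehicle replicate 3. They took 0.240%, 0.206% and 0.223% in antagomir replicates 1, 2 and 3. Vehicle replicates 2 and 3 were thus the low libraries, and the share in vehicle replicate 1 lay within the range of the antagomir group. In these bulk samples, fewer dividing cells and less of each transcript per cell cannot be told apart.

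In the edgeR quasi-likelihood test with Benjamini-Hochberg adjustment, all 55 genes were tested and none was called, with adjusted p-values of 0.949 to 0.987. Of all 15012 genes tested, 0% were called at an adjusted p under 0.05. The structures below are therefore described by levels, fold changes and standard errors (n = 3 libraries per group). The fold changes were positive for 51 of the 55 genes, against 49.1% of all genes tested. Their median log2 fold change was 0.88, with a range of -0.37 to 1.45, and the median of all genes tested was -0.0062. An unadjusted p under 0.05 was reached by 19 genes on the higher side, against 2.18% of all genes, and by 0 on the lower side, against 1.93%. The antagomir libraries lay wholly above the vehicle libraries for 13 genes, against 5.07% of all genes, and wholly below for 0, against 5.45%. Those 13 were Ccna2, Ndc80, Aurkb, Aurka, Kif11, Nusap1, Hmmr, Fam83d, Ncaph, Kif20a, Cdc20, Ube2c and Depdc1b. The members were chosen with earlier results of these data known, so these counts are descriptions of the list.

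**Figure D2:**
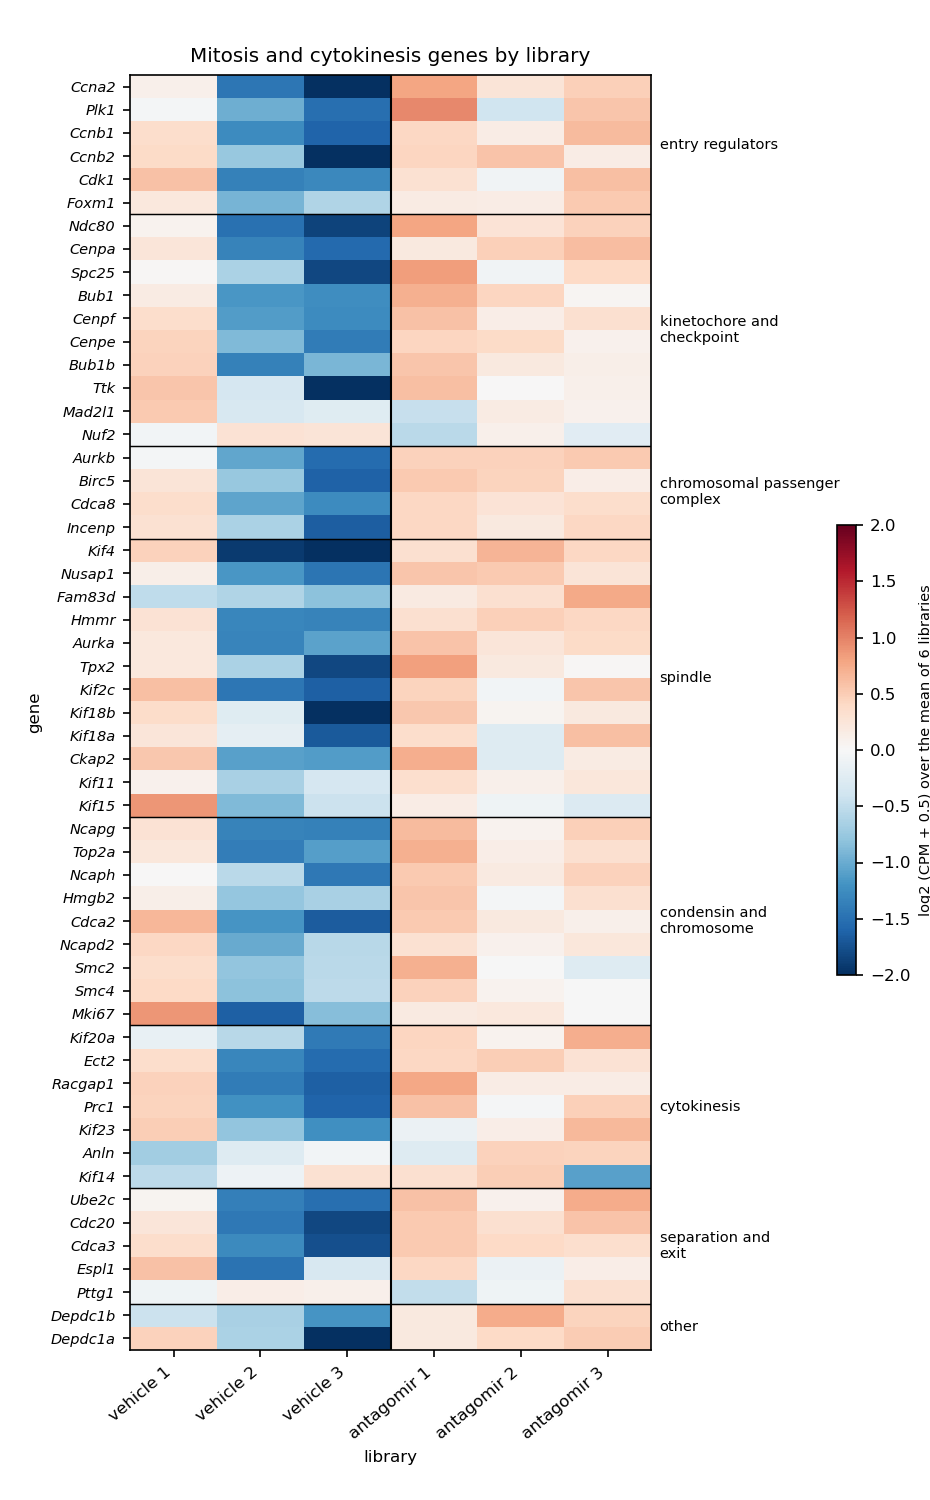
Level of each of the 55 genes (rows, by mitotic structure) in each of the 6 libraries (columns). Colour is the log2 of CPM + 0.5 divided by the gene's mean of CPM + 0.5 over the 6 libraries, with values under -2 drawn at -2. Vehicle replicate 3 was the lowest of the 6 libraries for 37 genes and vehicle replicate 2 for 13, while vehicle replicate 1 looks like the antagomir libraries for most rows.

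Among the vehicle libraries alone, replicate 1 was the highest for 51 of the 55 genes, against 37.1% of all genes tested. Its level was a median of 2.77 times the mean of vehicle replicates 2 and 3, with a range of 0.596 to 6.95 times. The exceptions were Nuf2, Anln, Kif14 and Pttg1, for which it was the lowest. The standard deviation within the vehicle group exceeded that within the antagomir group for 45 of the 55 genes, a count that was not made over all genes tested. Without vehicle replicate 1, the median log2 fold change was 1.54 and 45 genes had an unadjusted p under 0.05 on the higher side, against 5.35% of all genes tested. The groups then did not overlap, with the antagomir libraries higher, for 49 genes, against 14% of all genes. No gene passed the edgeR test with Benjamini-Hochberg adjustment without that library either. The smallest adjusted p was 0.0932, shared by Cdc20, Kif4, Ect2, Ccna2, Ccnb1 and Nusap1. Because vehicle replicate 1 was the highest vehicle library for most members, leaving it out in itself raises these counts and fold changes. Members with an unadjusted p under 0.05 on the higher side numbered 4 without vehicle replicate 2 (2.32% of all genes). They numbered 6 without vehicle replicate 3 (1.41%). The part of the microglial markers in the level of vehicle replicate 1 was not tested.

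**Figure D3:**
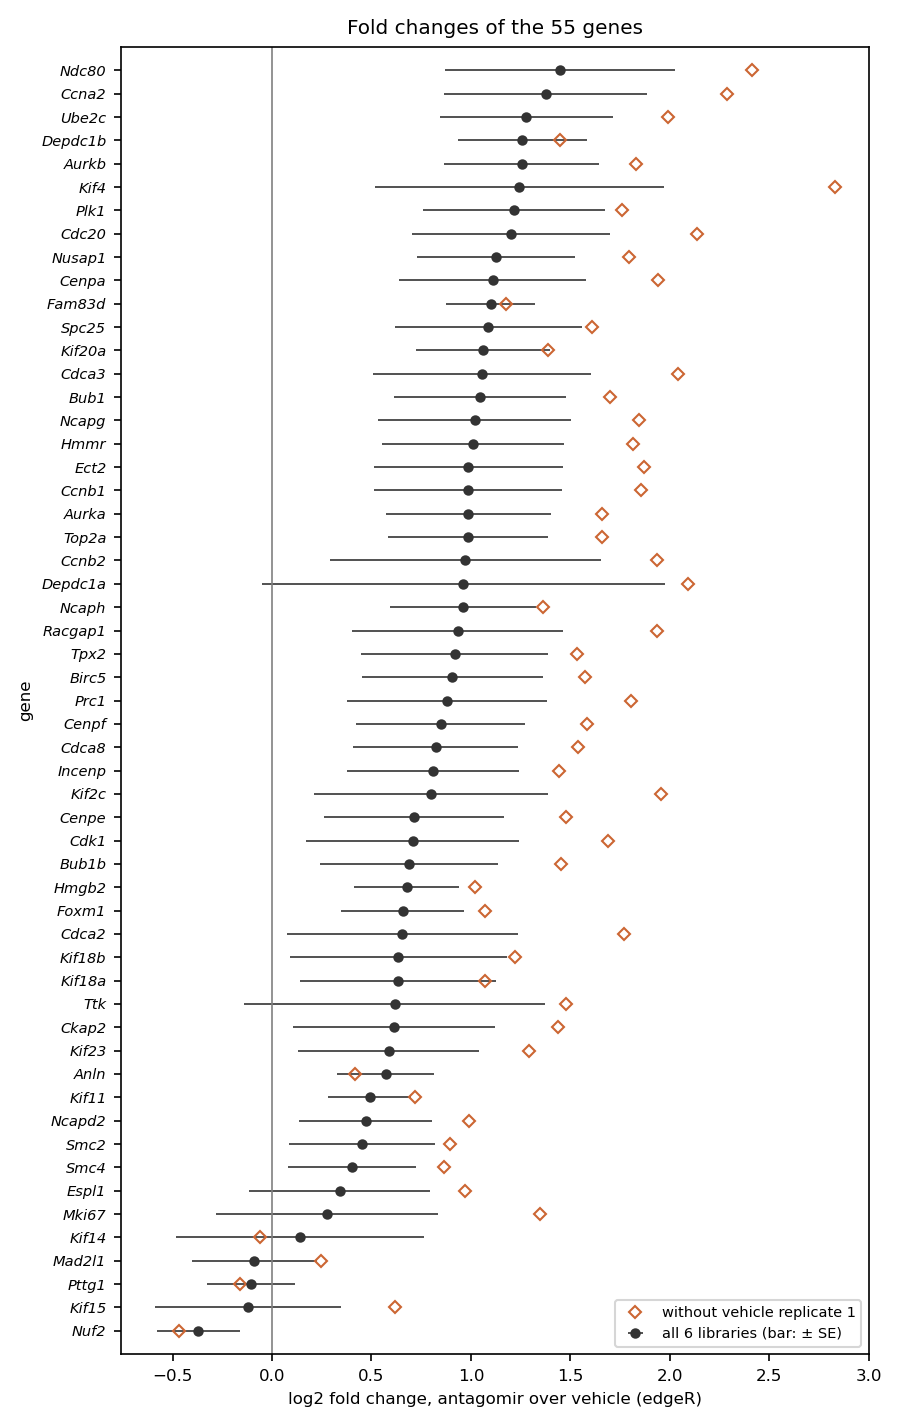
Log2 fold change of each gene, antagomir over vehicle (x axis), with all 6 libraries (filled points, bars ± SE) and without vehicle replicate 1 (open diamonds). The points run from -0.37 for Nuf2 to 1.45 for Ndc80, and for 51 of the 55 genes the diamond lies to the right of the point.

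The DESeq2 test, run as an alternative, called 5 of 20746 genes (0.0241%) at an adjusted p under 0.05. The only member among them was Fam83d, whose log2 fold change there was 1.11 (DESeq2 adjusted p = 0.0486). Of the members, 28 had an unadjusted p under 0.05 on the higher side in that test, against 2.39% of all genes with a p there (4.42% in either direction).

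A score per library, the median over genes of log2 CPM minus the gene's mean over the 6 libraries, gave a like order of the libraries in most structures. Over all 55 genes it was 0.48, -0.87 and -1.28 in vehicle replicates 1, 2 and 3 and 0.67, 0.37 and 0.51 in antagomir replicates 1, 2 and 3. Vehicle replicate 1 lay between antagomir replicates 2 and 3, so the groups overlapped. The 4 genes of the chromosomal passenger complex scored 0.46, -0.74 and -1.45 in the vehicle libraries and 0.63, 0.53 and 0.55 in the antagomir libraries. Theirs and the score of the pair Depdc1a and Depdc1b were the member scores whose groups did not overlap. The condensin and chromosome genes were the one structure in which vehicle replicate 2 scored lowest, at -0.93, with vehicle replicate 3 at -0.65.

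**Figure D4:**
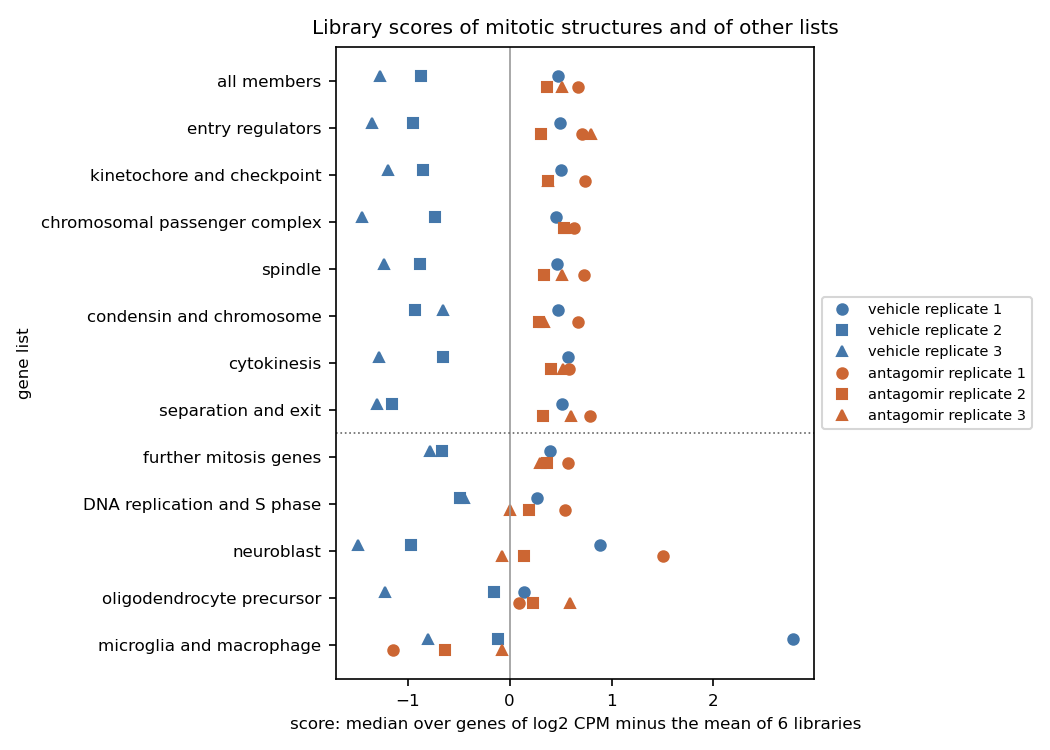
Library score of each structure and of comparison lists (y axis) as the median over genes of log2 CPM minus the mean of 6 libraries (x axis), with 1 symbol per library. Vehicle replicate 1 sits with the antagomir libraries in every mitotic structure, and alone at 2.78 for the microglia and macrophage markers.

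On GRCm38, the genes with the smallest unadjusted p of the 7 named structures lie at chr3:36564865-36572150 (Ccna2, minus strand), chr17:71496100-71526857 (Ndc80, minus strand), chr11:69045647-69051664 (Aurkb, plus strand), chr2:158768093-158786637 (Fam83d, plus strand), chr2:127103809-127133954 (Ncaph, minus strand), chr18:34624613-34633277 (Kif20a, plus strand) and chr2:164769898-164778822 (Ube2c, plus strand).

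The regulators of mitotic entry all had positive fold changes, with a median of 0.98. An unadjusted p under 0.05 was reached by 2 of the 6, against 2.18% of all genes on the higher side. Ccna2, whose product cyclin A2 activates CDK1 and CDK2, measured 46.9, 15.8 and 10.2 CPM in vehicle replicates 1 to 3 and 75.5, 52.5 and 60.97 CPM in the antagomir libraries. The groups did not overlap, although vehicle replicate 1 stood closer to the antagomir libraries than to the other vehicle libraries (log2 fold change 1.38 ± 0.51 SE). Plk1, the polo kinase of centrosome maturation and mitotic entry, measured 24.9, 12.7 and 8.63 CPM in the vehicle group and 50.1, 19.3 and 37.8 CPM in the antagomir group. Here vehicle replicate 1 lay above antagomir replicate 2, so the groups overlapped (log2 fold change 1.22 ± 0.46 SE).

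Foxm1, which encodes the transcription factor of G2 and M phase genes, had levels of 36.2, 16.2 and 20.5 CPM after vehicle and 35.1, 34.8 and 45.1 CPM after the antagomir. Its fold change of 0.66 ± 0.31 SE on the log2 scale went with a vehicle replicate 1 inside the antagomir range. For Ccnb1, the main B cyclin, the vehicle libraries held 74.6, 24.3 and 19.1 CPM and the antagomir libraries 78.1, 64.99 and 90.7 CPM. Vehicle replicates 2 and 3 were low and the other 4 libraries alike, which left a log2 fold change of 0.99 ± 0.47 SE, and of 1.85 without vehicle replicate 1. Cdk1, the mitotic kinase itself, gave 29.5, 7.40 and 7.72 CPM and 24.3, 18.5 and 29.9 CPM in the same order. Its vehicle replicate 1 nearly equalled the highest antagomir library, and the log2 fold change was 0.71 ± 0.54 SE. Ccnb2, the second B cyclin, had a log2 fold change of 0.97 and measured 1.32 CPM in vehicle replicate 3, against 11.4 to 15.5 CPM in the antagomir libraries.

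Of the 10 kinetochore and checkpoint genes, 8 had positive fold changes, and the median was 0.78. An unadjusted p under 0.05 was reached by 4 (Ndc80, Bub1, Cenpa and Spc25), against 2.18% of all genes on the higher side. Ndc80, the subunit that names the microtubule-binding complex of the outer kinetochore, measured 8.94, 2.69 and 1.98 CPM in the vehicle libraries and 14.9, 10.4 and 11.9 CPM in the antagomir libraries. The groups did not overlap, and its log2 fold change of 1.45 ± 0.58 SE was the largest of the 55 genes. Bub1, a kinase of the checkpoint that also marks centromeric chromatin, measured 18.1, 6.91 and 6.50 CPM and 26.6, 21.8 and 16.6 CPM, with vehicle replicate 1 above antagomir replicate 3 (log2 fold change 1.05 ± 0.43 SE). Cenpa, the histone H3 variant that marks centromeres, measured 29.9, 9.72 and 8.28 CPM and 29.02, 35.3 and 39.02 CPM. Vehicle replicate 1 lay just above the lowest antagomir library, and the log2 fold change was 1.11 ± 0.47 SE.

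Spc25, a partner of Ndc80 in the same complex, had a log2 fold change of 1.09. Cenpf and Cenpe, large proteins of the outer kinetochore of which Cenpe is a motor, had 0.85 and 0.71. The checkpoint genes Bub1b, which encodes BubR1, and Ttk, the kinase known as MPS1, had 0.69 and 0.62. None of these last 4 had an unadjusted p under 0.05, and Ttk measured 1.02 CPM in vehicle replicate 3 against 15.7 CPM in vehicle replicate 1.

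Nuf2 and Mad2l1, described in full after their values were seen, had negative fold changes, unlike the other kinetochore genes. Nuf2, the direct partner of Ndc80, measured 49.8, 63.7 and 61.8 CPM in the vehicle libraries and 35.6, 55.8 and 44.3 CPM in the antagomir libraries. Its vehicle replicates 2 and 3 were the highest of the 6 libraries, and the log2 fold change of -0.37 ± 0.21 SE was the lowest of the 55 genes. Mad2l1, the checkpoint protein MAD2 that holds CDC20, measured 26.4, 14.5 and 15.4 CPM and 13.1, 20.4 and 19.4 CPM. Its antagomir replicate 1 was the lowest library, and the groups overlapped widely (log2 fold change -0.09 ± 0.31 SE).

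The chromosomal passenger complex, which corrects faulty attachments and later directs the cleavage furrow, was positive for all 4 genes, with a median log2 fold change of 0.86. Aurkb, its kinase, measured 18.2, 8.81 and 6.09 CPM in the vehicle libraries and 25.9, 25.97 and 27.2 CPM in the antagomir libraries. The antagomir libraries lay within 2 CPM of each other and above every vehicle library, with means of 11.04 ± 6.37 and 26.3 ± 0.708 CPM (SD). The log2 fold change was 1.25 ± 0.39 SE, the largest of the complex. Birc5, or survivin, which docks the complex on centromeric chromatin, measured 21.8, 10.5 and 5.53 CPM and 26.2, 24.8 and 19.8 CPM. Vehicle replicate 1 lay above antagomir replicate 3 (log2 fold change 0.91 ± 0.45 SE). Cdca8, or borealin, measured 41.7, 15.4 and 13.4 CPM and 43.5, 39.4 and 41.6 CPM, with vehicle replicate 1 inside the narrow antagomir range (log2 fold change 0.82 ± 0.41 SE). Incenp, the scaffold, had 0.81.

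Of the 12 spindle genes, 11 had positive fold changes. An unadjusted p under 0.05 was reached by 4 (Fam83d, Nusap1, Aurka and Kif11), against 2.18% of all genes on the higher side. The groups did not overlap for those 4 and Hmmr, against 5.07% of all genes with the antagomir libraries higher. Fam83d, a spindle protein that brings casein kinase 1 alpha to the mitotic spindle, measured 19.4, 18.2 and 15.6 CPM in the vehicle libraries and 31.6, 35.1 and 47.3 CPM in the antagomir libraries. Its vehicle libraries lay close together, unlike those of most members, and replicate 1 was 1.15 times the mean of the other vehicle libraries. The log2 fold change was 1.10 ± 0.22 SE, and 1.18 without vehicle replicate 1, and its unadjusted p was the smallest of the 55 genes. Nusap1, which binds and bundles spindle microtubules, measured 43.5, 17.6 and 14.3 CPM and 59.2, 57.6 and 47.98 CPM (log2 fold change 1.13 ± 0.40 SE). Aurka, the kinase of the centrosomes and spindle poles, measured 23.7, 7.83 and 9.39 CPM and 30.4, 24.2 and 26.6 CPM. For both genes vehicle replicate 1 was the highest vehicle library and lay just under the lowest antagomir library (Aurka log2 fold change 0.99 ± 0.41 SE).

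Kif11, the motor that pushes the spindle poles apart, had a smaller log2 fold change of 0.49. Tpx2, the activator of Aurora A, and Hmmr, a spindle assembly factor, had 0.92 and 1.01. The chromosome-bound motor gene Kif4 had 1.24 and the farthest vehicle replicate 1 of any member, at 6.95 times the mean of the other vehicle libraries. Kif2c, a microtubule-depolymerising kinesin, and Kif18a and Kif18b, kinesins that limit microtubule length, had 0.80, 0.63 and 0.63. Ckap2, a microtubule-associated protein, had 0.61. Kif15, a kinesin that can back up Kif11, had -0.12 and was highest in vehicle replicate 1, at 24.2 CPM against 6.79 to 14.4 CPM in the other 5 libraries.

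All 9 condensin and chromosome genes had positive fold changes, with a median of 0.66, the lowest of the structures. Ncaph, the kleisin subunit that closes the ring of condensin I, measured 19.01, 12.9 and 6.75 CPM in the vehicle libraries and 27.4, 21.5 and 26.3 CPM in the antagomir libraries, without overlap (log2 fold change 0.96 ± 0.37 SE). Hmgb2, a chromatin protein that bends DNA, measured 146, 78.7 and 85.6 CPM and 198, 131 and 168 CPM. Vehicle replicate 1 lay above antagomir replicate 2 (log2 fold change 0.68 ± 0.26 SE). Top2a, the topoisomerase that untangles sister chromatids, measured 103, 33.5 and 41.03 CPM and 144, 96.8 and 111 CPM. Vehicle replicate 1 again lay inside the antagomir range, while vehicle replicates 2 and 3 were far below the lowest antagomir library (log2 fold change 0.98 ± 0.40 SE).

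Smc4, one of the ATPases of condensin, measured 64.3, 27.4 and 33.7 CPM and 66.9, 50.9 and 48.1 CPM. The groups overlapped and the log2 fold change was 0.40 ± 0.32 SE. Mki67, the gene of the proliferation marker Ki-67 that coats mitotic chromosomes, measured 80.3, 13.6 and 23.8 CPM in the vehicle libraries and 48.97, 50.5 and 43.1 CPM in the antagomir libraries. Vehicle replicate 1 was the highest of all 6 and vehicle replicate 2 the lowest, so the log2 fold change of 0.28 ± 0.56 SE was smaller than its error. Leaving out vehicle replicate 1 gave 1.35, and leaving out vehicle replicate 2 gave -0.13. The other condensin subunits Ncapg, Ncapd2 and Smc2 had 1.02, 0.47 and 0.45, and Cdca2, which brings a phosphatase to chromatin at mitotic exit, had 0.66.

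All 7 cytokinesis genes had positive fold changes, with a median of 0.88. An unadjusted p under 0.05 was reached by 2 of them, against 2.18% of all genes on the higher side. Kif20a, a kinesin that carries the passenger complex to the central spindle, measured 30.9, 23.2 and 12.5 CPM in the vehicle libraries and 46.05, 35.9 and 56.9 CPM in the antagomir libraries. The groups did not overlap (log2 fold change 1.06 ± 0.34 SE). Ect2, the exchange factor that activates RhoA at the furrow, measured 40.3, 12.5 and 10.5 CPM and 42.3, 44.4 and 38.7 CPM. Vehicle replicate 1 lay inside the antagomir range (log2 fold change 0.99 ± 0.48 SE), and without it the log2 fold change was 1.87. Racgap1 and Kif23, which together form centralspindlin, had 0.93 and 0.59, and Prc1, the bundler of the central spindle, had 0.88.

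Anln, the anillin that links actin, septins and RhoA in the furrow, measured 59.3, 80.3 and 92.6 CPM in the vehicle libraries and 80.2, 133 and 132 CPM in the antagomir libraries. Vehicle replicate 1 was here the lowest library, antagomir replicate 1 lay among the vehicle libraries and antagomir replicates 2 and 3 were high (log2 fold change 0.57 ± 0.24 SE). Anillin is also known from myelinating oligodendrocytes. The summed level of 10 oligodendrocyte markers was 9701, 20434 and 15012 CPM in vehicle replicates 1 to 3 and 15469, 22033 and 20742 CPM in the antagomir libraries, with vehicle replicate 1 the lowest vehicle library for 10 of 10 markers. The part of oligodendrocyte transcripts in the level of Anln was not tested. Kif14, a kinesin of late cytokinesis, was the member with the lowest level per length and had a log2 fold change of 0.14 ± 0.62 SE.

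Of the 5 genes of chromosome separation and mitotic exit, 4 had positive fold changes, and their median of 1.06 was the highest of the structures with more than 2 genes. Ube2c, the ubiquitin-conjugating enzyme of the anaphase-promoting complex, measured 30.5, 11.1 and 10 CPM in the vehicle libraries and 44.4, 31.3 and 49.6 CPM in the antagomir libraries. Vehicle replicate 1 came just under antagomir replicate 2, without overlap (log2 fold change 1.28 ± 0.44 SE). Cdc20, the activator of that complex, measured 47.3, 14.6 and 10.97 CPM and 57.9, 50.1 and 59.4 CPM, again without overlap (log2 fold change 1.20 ± 0.50 SE). Without vehicle replicate 1 its log2 fold change was 2.14. Cdca3, which takes part in the destruction of the mitotic inhibitor WEE1, measured 16.9, 5.14 and 3.503 CPM and 18.98, 17.4 and 16.7 CPM, with vehicle replicate 1 inside the antagomir range (log2 fold change 1.06 ± 0.55 SE).

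Espl1, the separase that cuts cohesin, had a log2 fold change of 0.34, and -0.038 without vehicle replicate 2. Pttg1, the securin that holds separase inactive, measured 54.1, 63.1 and 61.3 CPM in the vehicle libraries and 40.5, 53.8 and 71.7 CPM in the antagomir libraries. It is described in full after its values were seen: antagomir replicates 1 and 3 were its lowest and highest libraries, and the log2 fold change was -0.10 ± 0.22 SE. Depdc1b and Depdc1a, which form no structure with the others, are genes with mitotic expression. Depdc1b measured 8.49, 7.22 and 4.82 CPM and 13.4, 19.7 and 16.1 CPM, without overlap (log2 fold change 1.26 ± 0.32 SE). Depdc1a measured 8.44, 3.67 and 0.102 CPM and 6.93, 8.10 and 8.73 CPM (log2 fold change 0.96 ± 1.01 SE). Its level in vehicle replicate 3 was under the 0.152 CPM that 3 counts amount to in that library.

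Levels per length, in TPM (transcripts scaled to length and library size) averaged over the 6 libraries, ran from 1.34 to 229 TPM over the 55 genes. Hmgb2 was the most abundant at 229 TPM (136 to 306 TPM over the libraries), followed by Pttg1 at 156, Ube2c at 60.6 and Ccnb1 at 54.7 TPM. The order of the first pair held in vehicle replicate 1 and the antagomir libraries. In vehicle replicates 2 and 3 Pttg1 (170.3 and 162.6 TPM) lay above Hmgb2 (136.1 and 147.9 TPM). A transcript of 414 bases held 17.3% of the estimated counts of Hmgb2 over the 6 libraries. The level per length of Hmgb2, and its place above Pttg1, therefore depend on how the reads were divided among transcripts. Pttg1 and Ube2c do not overlap in their ranges (119 to 186 and 19.7 to 104 TPM), while Ube2c and Ccnb1 do. Kif14 was the lowest at 1.34 TPM (0.468 to 2.51 TPM), next to Depdc1a at 3.56 and Kif15 at 4.55 TPM, and the ranges of these 3 genes overlap. Mki67 was among the low members, at 8.62 TPM.

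Subunits of 1 complex were not at 1 level. In the Ndc80 complex, Nuf2 averaged 44.8 TPM, Spc25 27.9, Spc24 10.8 and Ndc80 6.88 TPM. The range of Nuf2 (32.04 to 55.1 TPM) lay wholly above that of Ndc80 (1.55 to 12.3 TPM). In the passenger complex Cdca8 averaged 44.4, Birc5 28.5, Aurkb 25.5 and Incenp 17.04 TPM, with ranges that overlap. In condensin I the ATPases Smc4 and Smc2 averaged 49.2 and 43.5 TPM, Ncapd2 34.9, Ncaph 14.4 and Ncapg 7.64 TPM. Smc2 and Smc4 also serve condensin II. A transcript of 1163 bases held 39.8% of the estimated counts of Smc4 over the 6 libraries. Transcripts of 1660 and 643 bases held 29.8% and 19.7% of those of Smc2. The levels per length of both genes, and their place above Ncapd2, therefore depend on how the reads were divided among transcripts.

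**Figure D5:**
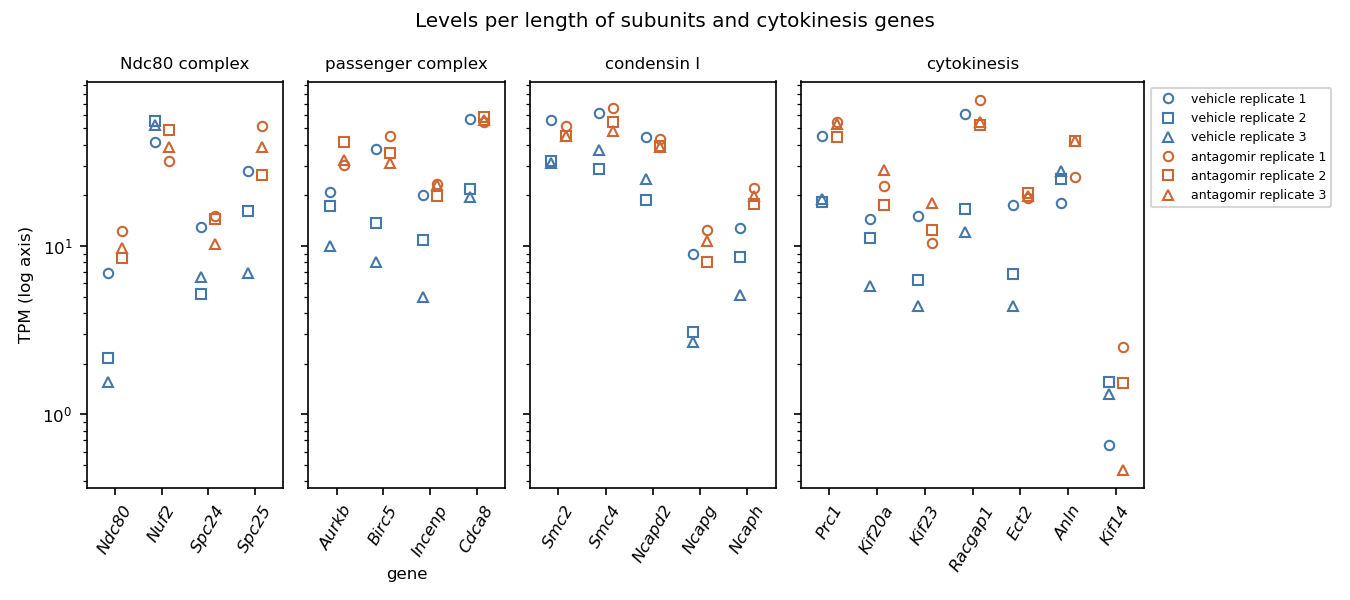
Level per length (TPM, log axis) of the subunits of the Ndc80 complex, the chromosomal passenger complex and condensin I and of the cytokinesis genes, 1 point per library. Nuf2 lies at 32.0 to 55.1 TPM in all 6 libraries while its partner Ndc80 ranges from 1.55 to 12.3 TPM.

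The fold changes were also set beside the promoter motifs. Of the 33 members with a CHR and a CCAAT box in a window, 33 had a positive log2 fold change, with a median of 0.93. Of the 13 with a window that lacked 1 or both, 9 were positive, with a median of 0.71. Those 13 include Nuf2, Pttg1, Mad2l1 and Kif15, the 4 members with negative fold changes, and also Ndc80, Nusap1 and Ccnb1. The other 9 members, Aurkb, Ccna2, Cdca2, Depdc1b, Foxm1, Incenp, Kif20a, Smc4 and Tpx2, had no window to search. The fold changes of Pttg1, Mad2l1 and Kif15 were smaller than their standard errors. Without vehicle replicate 1 those of Mad2l1 (0.24) and Kif15 (0.62) were positive. Among members with both motifs, Kif14 was negative without vehicle replicate 1 (-0.061), and Mki67 and Espl1 were negative without vehicle replicate 2. The signs that divide the promoter groups thus changed with the libraries used. The promoter groups were compared after the fold changes were known and were not tested.

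Related genes outside the 55 were measured beside them. Of 70 further mitosis genes, 67 had positive fold changes, against 49.1% of all genes tested, and the median was 0.62. An unadjusted p under 0.05 was reached by 15 of the 70 on the higher side, against 2.18% of all genes, and by 0 on the lower side. The groups did not overlap for 21 of them with the antagomir libraries higher, against 5.07% of all genes, and for 1 with the antagomir libraries lower, against 5.45%. Vehicle replicate 1 was the highest vehicle library for 62 of the 70, against 37.1% of all genes tested. These 70 genes scored 0.39, -0.66 and -0.78 in vehicle replicates 1, 2 and 3. In antagomir replicates 1, 2 and 3 they scored 0.57, 0.37 and 0.30, so the group scores overlapped as for the 55 genes. The 4 with the smallest p were Tacc3, a spindle microtubule protein (44.7, 26.4 and 23.1 and 62.05, 55.95 and 59.5 CPM, log2 fold change 0.91), Sgo2a, a protector of centromeric cohesion (1.68), Cdc25b, a phosphatase that activates CDK1 (0.71), and Kif20b, a kinesin of cytokinesis (1.03). Of 50 genes of DNA replication and S phase, 45 had positive fold changes, with a smaller median of 0.37, and 3 had an unadjusted p under 0.05 on the higher side, against the same 2.18%. These were Hells (1.22), a chromatin remodeller, Orc1 (2.03), a subunit of the origin recognition complex, and Rrm2 (0.80), a subunit of ribonucleotide reductase. Uhrf1, a maintenance factor of DNA methylation and the next by p, had 0.53. For 40 of the 50 replication and S phase genes, vehicle replicate 1 was the highest vehicle library. These 50 genes scored 0.27, -0.49 and -0.45 in the vehicle libraries and 0.54, 0.19 and 0.0008 in the antagomir libraries.

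The medians were smaller still for the anaphase-promoting complex core and for cohesin. The 15 genes listed for the anaphase-promoting complex core and its activator Fzr1 had a median log2 fold change of 0.10, with 12 positive. Fzr1 (0.45) was the 1 with an unadjusted p under 0.05, against 2.18% of all genes on the higher side. Cdc23, Anapc5 and Anapc2 had 0.27, 0.18 and 0.14. The 13 cohesin genes had a median of 0.11, with 11 positive. Esco2 (1.33), the acetyltransferase of S phase cohesion, was the 1 with an unadjusted p under 0.05, against the same 2.18%. Stag1, Cdca5 and Pds5a had 0.57, 0.89 and 0.20.

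Markers of other cell types were ordered over the libraries in part like the mitosis genes. The 14 neuroblast markers measured scored 0.88, -0.97 and -1.49 in vehicle replicates 1, 2 and 3 and 1.5, 0.14 and -0.08 in antagomir replicates 1, 2 and 3. Their summed level was 736 to 1855 CPM in the vehicle group and 1168 to 2856 CPM in the antagomir group, and vehicle replicate 1 was the highest vehicle library for 14 of 14. The 12 oligodendrocyte precursor markers scored 0.15, -0.15 and -1.22 in the vehicle libraries and 0.09, 0.23 and 0.59 in the antagomir libraries. Their summed level was 1309, 1481 and 1276 CPM in vehicle replicates 1, 2 and 3 and 1387 to 1712 CPM in the antagomir group, and vehicle replicate 1 was the highest vehicle library for 7 of the 12. The 11 activated stem cell and progenitor markers scored 0.42, -0.42 and -0.25, and 0.30, -0.01 and 0.23. Their summed level was 1303, 969 and 1063 CPM in the vehicle libraries and 1501 to 1699 CPM in the antagomir group. By the score vehicle replicate 1 lay above vehicle replicates 2 and 3 in all 3 lists, whereas by the summed level of the precursor markers it lay below vehicle replicate 2. The 15 quiescent stem cell and astrocyte markers scored 0.10, 0.06 and 0.18 in the vehicle libraries and -0.11, -0.36 and 0.01 in the antagomir libraries. The part of the make-up of each sort in the levels of the mitosis genes was not tested.

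Several members share sequence with other genes. Exons of 14 of the 55 overlap another annotated gene, 11 of them one on the opposite strand, among them Ccna2 with Exosc9, Nusap1 with Oip5, Kif20a with Cdc23, Cdc20 with Elovl1 and Ube2c with Tnnc2. The library kit does not mark strand, so reads in such overlaps cannot be told apart by strand. Ccnb1, Ccnb2 and Kif4 each have a pseudogene by name, and their levels are uncertain to that extent. A single transcript was annotated for 8 members, the most abundant transcript held over 90% of the estimated counts for 25, and it held under 50% for 6 (Cdca3, Cenpa, Mad2l1, Smc2, Smc4 and Tpx2).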

How the data were processed

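RNA was sequenced from 6 libraries of sorted cells, 3 per group, made with the SMART-Seq v4 kit and read as 100 bp pairs, per the labels' protocols. Tools named in the submitters' processing notes are kallisto and sleuth, with the build mm10 and no versions given in the sources used here. Per the file headers, the authors' files hold expected counts (estimated fragments of each transcript, not normalized) and, from the same estimates, deposited TPM, which are relative to effective length and library size. Reads of similar transcripts are divided by a model. Of 99567 transcripts, 98294 (98.7%) matched GENCODE M21 (GRCm38) by identifier, and the rest held 0.524 to 0.586% of counts and were left out. Counts were summed per gene and rounded.

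Genes were tested with edgeR 4.0.16 (R 4.3.3; TMM, filterByExpr with a minimum count of 10, robust quasi-likelihood, group only), with Benjamini-Hochberg adjustment over 15012 genes at 0.05. The common biological coefficient of variation was 36.2%. The SE of an edgeR log2 fold change was calculated back from the quasi-likelihood F statistic. It is the absolute unshrunk log2 fold change divided by the square root of F. On simulated counts for the antagomir and vehicle libraries the test recovered 1, 12, 36 and 47 of 50 genes changed 1.5, 2, 4 and 8-fold, with 8 false calls among 14951 genes. Alternatives were RLE and total-count scaling, other filters, DESeq2 1.42.0, limma 3.58.1 (voom, and log2(TPM + 1)), a replicate block and leaving out each library. Scores were made from log2 CPM (prior count 2). Library pairs differed by a chi-square of 23.5 to 98.4 per gene over 15 pairs, far above sampling noise.

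The members and lists were chosen with earlier results of these data known. Levels in every library are given for the 3 members of each structure with the smallest p and for Mki67, Top2a, Cdk1, Ccnb1, Aurkb, Plk1, Cenpa and Smc4, and the 4 genes with the smallest p are named from each comparison list. Values in every library for Nuf2, Mad2l1, Pttg1 and Depdc1a lie outside this rule or were added to it. Promoters and the miR-204-5p sequence are from RefSeq (GRCm38.p6). Marker lists were quiescent stem cell and astrocyte, activated stem cell and progenitor, neuroblast (14 of 15 matched), oligodendrocyte precursor, oligodendrocyte, ependymal cell, microglia and macrophage, endothelial cell and pericyte, and choroid plexus epithelium. The summed levels of the ependymal, endothelial and pericyte, and choroid plexus lists were 1666 to 3125, 91.2 to 147 and 60.8 to 138 CPM over the libraries.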

Additional observations from a re-analysis of the deposited data

How the results depend on the processing

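The edgeR count of genes called was 0 under the scalings, filters, replicate block and left-out libraries, as with limma, and 5 with DESeq2. With an unadjusted p under 0.05, 616 genes passed in edgeR. Members with an unadjusted p under 0.05 on the higher side numbered 19, against 2.18% of all genes tested, and 43 with the replicate block (5.78%), 34 with limma-voom (2.86%), 32 on log2(TPM + 1) (3.34%), and 4 to 45 when each library was left out (1.41% to 5.35%). On the lower side they numbered 0, and 1 with the replicate block and 0 to 1 when each library was left out. The high count, 45, came without vehicle replicate 1 (5.35% of all genes) and the low count, 4, without vehicle replicate 2 (2.32%). The members' median log2 fold change was 0.56 to 1.54 over the left-out libraries, and the gap between mean group scores was 1.07, with a range of 0.67 to 1.58. Over 55 genes and 14 alternatives, 755 of 770 fold changes kept their sign and their side of the threshold, 14 reversed in 6 genes, and Fam83d passed with DESeq2. Without vehicle replicate 2, Espl1 reversed to -0.038 and Mki67 to -0.13. Over the left-out libraries the log2 fold change ranged from -0.038 to 0.97 for Espl1, -0.13 to 1.35 for Mki67, -0.33 to 0.076 for Pttg1 (positive without antagomir replicate 1), -0.16 to 0.54 for Kif14 (negative without vehicle replicate 1, at -0.061, and without antagomir replicates 1 and 2), -0.44 to 0.62 for Kif15 and -0.24 to 0.24 for Mad2l1 (both highest without vehicle replicate 1). Kif14 had -0.065 with limma-voom, Kif15 had 0.082 with the replicate block, 0.076 with limma-voom and 0.098 on log2(TPM + 1), and Mad2l1 had 0.16 on log2(TPM + 1). The cause of these reversals was not tested. Same-numbered libraries correlated in their deviations from the group means at r = 0.195, 0.0749 and 0.0275. Vehicle replicates 1 and 2 correlated best with the antagomir library of the same number, and vehicle replicate 3 with antagomir replicate 2 (0.140). These few weak correlations cannot decide whether the numbers pair the samples. With 3 libraries per group, few changes under 4-fold were recovered on simulated counts.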
